A study of Mus musculus with 12 samples.

Results

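Of the 24254 genes in the deposited table, 55 have a symbol that begins with Eif and a digit, and 51 of these make up the translation initiation factors described here. Eif1a, Eif4e, Eif4e1b and Eif4enif1 were not included. The rule used symbols alone and no measured value, but it was set with earlier results of these data known. The 51 genes lie on 19 chromosomes and were listed here in groups by role. There were 6 genes under scanning and start codon selection, 6 of the eIF2 complex and other carriers of initiator tRNA and 5 eIF2B subunits. The others included 4 eIF2α kinases, 14 eIF3 genes and 7 genes of the cap-binding complex eIF4F and its helpers. Also listed were 1 gene of the exon junction complex, 5 of the 4E family and its binding proteins and 3 of the eIF5A and eIF6 group.

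RNA was sequenced from 12 libraries, each of 80 fully grown mouse oocytes of the germinal vesicle stage, before meiosis resumes. All groups came from C57BL/6 mice of 3 weeks carrying a gene trap in Marf1, a ribonuclease gene needed for oocyte meiosis, and primed for 46 h with 5 IU of the gonadotropin PMSG. GTWT oocytes (4 libraries) received wild type MARF1 mRNA by injection and GTD272 oocytes (4 libraries) the mRNA of MARF1 mutated at D272, and both were then kept for 48 h with milrinone, which holds oocytes at this stage. GT oocytes (4 libraries) were not described as injected or cultured, so the supplied protein cannot be told apart from injection and culture in a comparison with GT. The labels do not say that libraries of a group came from separate animals, so the spread behind each p-value may be technical. A protocol names lysed ovaries where the design text names oocytes.

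Translation initiation begins when eIF2 brings the initiator tRNA to the small ribosomal subunit together with eIF1, eIF1A, eIF3 and eIF5, and eIF4F recruits the capped mRNA. Fully grown oocytes are largely silent in transcription, so their protein output is set by which stored mRNAs are translated. The 4E-binding proteins hold back cap-dependent initiation, and kinases that phosphorylate eIF2α lower initiation as a whole under stress.

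The relative depth of the libraries, read from steps in their low values, was 55.4% to 100% of the deepest, and 11167 to 11364 genes reached 1 FPKM (sequenced fragments per kilobase of a transcript, scaled to all mapped fragments) in each. Marf1 was at 13.5, 24.1, 13.6 and 19.02 FPKM in GTWT, 9.73, 9.10, 9.66 and 7.99 in GTD272 and 1.27, 1.71, 1.83 and 1.59 in GT, in the order that the labels give. All 11 oocyte markers were present. The summed granulosa markers were at 119 to 129 FPKM in GTWT, 127 to 135 in GTD272 and 141 to 149 in GT, mostly from Nr5a2 (mean of 112 FPKM). Of the other 9 granulosa markers, Kitl averaged 12.7 FPKM in GTWT, 12.9 in GTD272 and 14.4 in GT, Cyp19a1 6.67, 5.04 and 4.87, and Inhba 1.26, 1.37 and 1.13, so Cyp19a1 was highest in GTWT where the sum was lowest. Amh, Fshr, Foxl2, Inha, Hsd17b1 and Fst were under 1 in every library. Theca and stroma markers summed to 0.591 to 1.87 FPKM and blood and vessel markers to 9.50 to 13.6, mostly Pecam1, with 4 of 6 at 0. The part of other cells in the differences below was not tested.

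The coding sequences of 2 pairs of related genes are shown because the pairs are told apart in the results that follow. In each pair the bases that differ are in capitals, and sequences are 5′ to 3′ on the coding strand from GENCODE vM21 (GRCm38). Eif5a and Eif5a2 are paralogs that encode related forms of the elongation and initiation factor eIF5A, of 154 and 153 residues. Their stretch from coding base 124 to 183 encodes the loop with the lysine that is changed to hypusine, and it differs at 8 of 60 bases. It crosses an exon boundary in both genes, at chr11:69918004-69919192 (minus strand) for Eif5a and chr3:28782175-28782745 (plus strand) for Eif5a2.
Eif5a: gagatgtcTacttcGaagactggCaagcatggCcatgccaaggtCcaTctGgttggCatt
Eif5a2: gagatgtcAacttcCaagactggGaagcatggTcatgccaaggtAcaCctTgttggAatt

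Over their whole coding sequences Eif5a and Eif5a2 are 72.7% identical in bases and 82.5% in residues, and their longest identical run is 14 bases, against reads of 150 bases. Eif1 and Eif1b encode start codon selection factors of 113 residues each that are 92.0% identical, from coding sequences 81.3% identical with a longest shared run of 25 bases. Of stretches of 60 coding bases within a single exon in both genes, the most different one has 16 differences. It lies at chr11:100320689-100320748 for Eif1 and chr9:120494130-120494189 for Eif1b, both on the plus strand.
Eif1: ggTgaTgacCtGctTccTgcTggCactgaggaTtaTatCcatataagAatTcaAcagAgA
Eif1b: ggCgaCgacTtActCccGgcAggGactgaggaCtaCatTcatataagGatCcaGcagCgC

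Initiation factor transcripts ranged over the 12 libraries from 0 to means above 200 FPKM, and subunits of 1 complex were far from equal in level. FPKM is scaled to transcript length, and levels of different genes are set side by side here as approximate values only. They also depend on how reads shared between genes were assigned, as for Eif3j1 and Eif3j2 below. Whether all transcripts were recovered equally well was not tested. The highest mean over all 12 libraries was that of Eif4h, which stimulates the RNA helicase eIF4A, at 319 FPKM. Eif1b followed at 293, Eif5a at 218, Eif4e3, a cap-binding protein of the 4E family, at 188, Eif6, which keeps ribosomal subunits apart, at 138, Eif1ax, the X-linked gene of eIF1A, at 136, and Eif2s2, the β subunit of eIF2, at 115. Of the 51 genes, 49 reached 1 FPKM in at least 4 libraries and entered the tests.

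**Figure D1:**
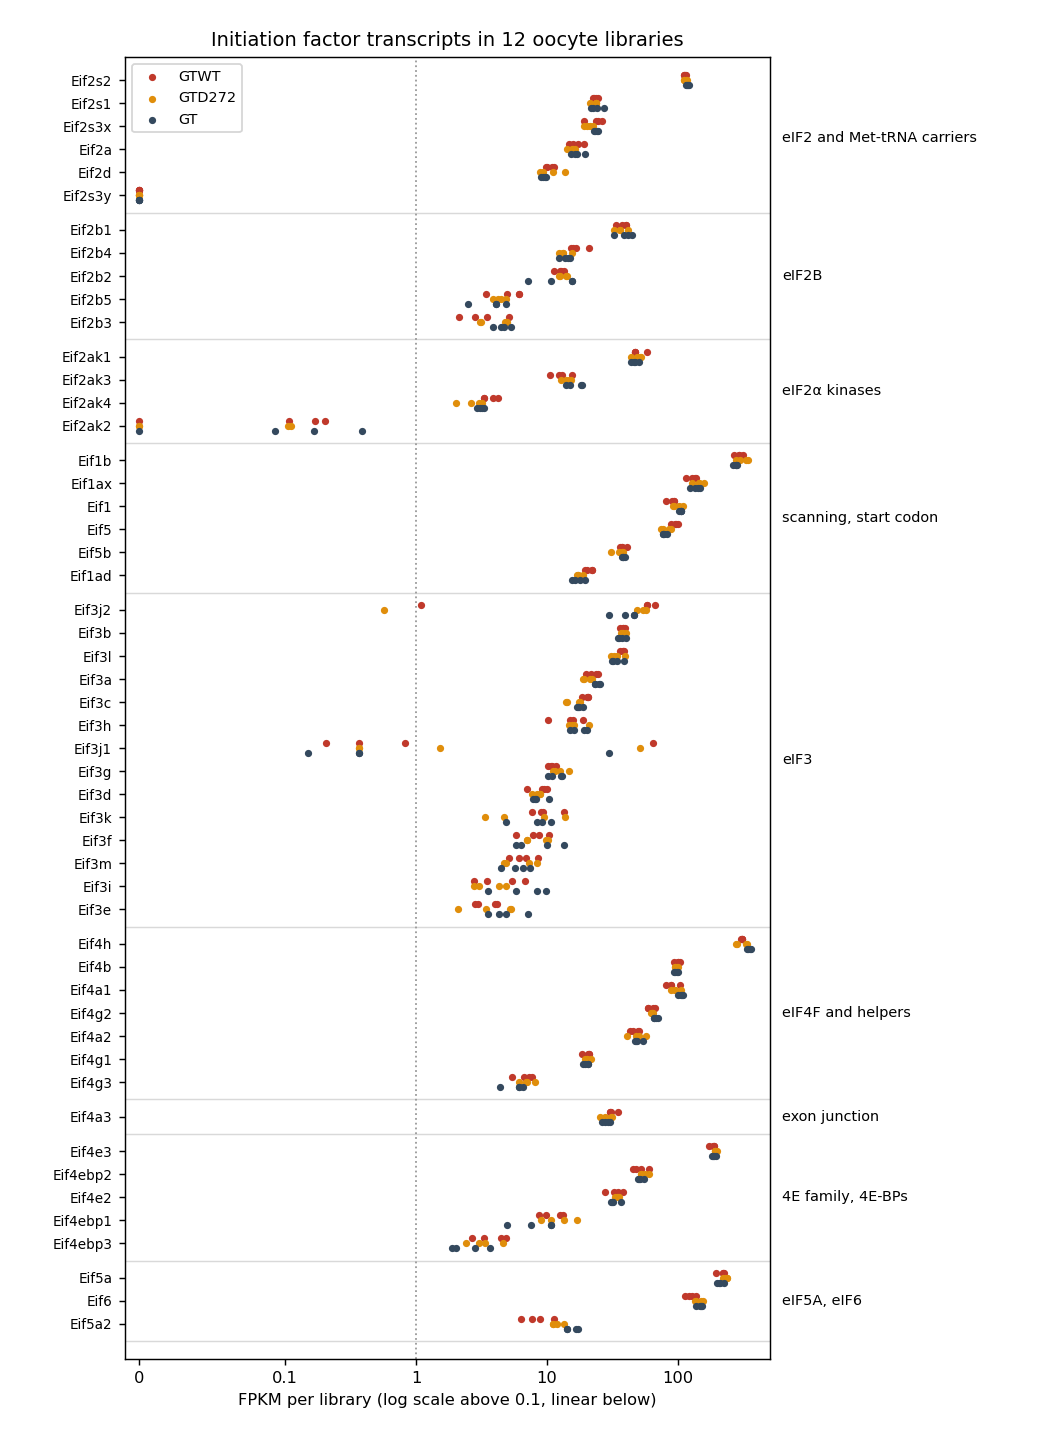
FPKM of 51 initiation factor genes (listed by role and by mean level) in each of 12 libraries, with GTWT, GTD272 and GT as separate points; the horizontal axis is logarithmic above 0.1 and linear below, and the dotted line marks 1 FPKM. Most genes form a tight group of points, while Eif3j1 and Eif3j2 are spread from under 1 to above 50 FPKM.

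Both genes left out of the tests were at or near 0. Eif2ak2 encodes PKR, the eIF2α kinase that responds to double-stranded RNA. It was listed at 0, 0.170, 0.202 and 0.108 FPKM in GTWT, 0, 0.111, 0 and 0.105 in GTD272 and 0.387, 0, 0.0931 and 0.167 in GT. The libraries of the 3 groups overlapped throughout at these low levels. Eif2s3y, the Y-linked gene of the eIF2 γ subunit, was listed at 0 in all 12 libraries, and its X-linked partner Eif2s3x was at 22.6 FPKM on average.

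Within eIF2, Eif2s2 was 4.84 ± 0.171 times as abundant as Eif2s1, the α subunit, in GTWT, 4.93 ± 0.388 times in GTD272 and 5.02 ± 0.616 times in GT (SD, n = 4 each). Eif2s1 and Eif2s3x were near equal, with ratios of 1.01 ± 0.106, 1.11 ± 0.0767 and 1.01 ± 0.0983 in GTWT, GTD272 and GT. The Eif2s2 ratio differed between groups by less than the SD of GT, and the libraries of the groups overlapped for both ratios. The ratio of Eif2s1 to Eif2s3x was 0.971, 0.927, 0.969 and 1.17 in the GTWT libraries, 1.12, 1.07, 1.22 and 1.05 in GTD272 and 1.03, 0.943, 1.13 and 0.915 in GT. Among the 5 subunits of eIF2B, which reloads eIF2 with GTP, means ran from 3.97 FPKM for Eif2b3 to 38.0 for Eif2b1. Eif2b4 averaged 14.9, Eif2b2 12.7 and Eif2b5 4.47 FPKM.

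Of the eIF2α kinases, the haem-regulated Eif2ak1 was the highest at 48.6 FPKM. Eif2ak3, or PERK, which responds to stress of the endoplasmic reticulum, averaged 14.5, and Eif2ak4, or GCN2, which responds to uncharged tRNA, 3.17 FPKM. The 14 eIF3 genes had a median of 12.1 FPKM, which includes the uncertain separate values of Eif3j1 and Eif3j2. The scaffold gene Eif3b averaged 37.6 and Eif3l 35.3, against 4.15 for Eif3e and 5.09 for Eif3i. In eIF4F, the helicase gene Eif4a1 averaged 97.3 FPKM and its paralog Eif4a2 48.6, the helicase cofactor Eif4b 97.4, and the scaffold gene Eif4g1 20.2 with Eif4g3 at 6.53. Eif4g2, a relative of eIF4G that lacks the site for eIF4E, was at 64.2 FPKM.

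In the 4E family Eif4e3 was 5.57 ± 0.833 times as abundant as Eif4e2, a cap-binding repressor gene, in GTWT, 5.63 ± 0.172 times in GTD272 and 5.77 ± 0.416 times in GT (SD, n = 4 each). Of the 4E-binding protein genes, Eif4ebp2 averaged 52.8 FPKM, Eif4ebp1 10.7 and Eif4ebp3 3.26. Libraries of a group were closest for abundant genes. The coefficient of variation, averaged over the 3 groups, had a median of 5.63% for the 13 genes at 50 FPKM or more and of 25.4% for the 11 genes under 10 FPKM, with 2.23% for Eif2s2 as the lowest of the 49.

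The first comparison, of GTWT with GT, asks which of these transcripts differ after mRNA for wild type MARF1 is supplied. Eif5a2 fell most, and Eif6 and Eif1 fell too, while Eif5 and Eif1ad rose. Limma called 5 of 49 genes (10.2%) at an adjusted p under 0.05, against 16.6% of the 11687 genes tested. The 2 that rose (4.08%) stand against a background of 6.14% of genes and the 3 that fell (6.12%) against 10.5%. In each direction the gap is a few genes, and leaving out a library moved the falls between 1 and 5. No lower share for these genes is concluded. The median log2 difference was -0.005 over the 49 genes and -0.01 over all genes, and 0 of the 49 were called with a difference of 2-fold or more, against 0.975% of all genes. Less RNA per oocyte and another mixture of cells cannot be told apart in these libraries, since FPKM is relative to each library's total.

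Eif5a2 was at 8.88, 6.31, 11.2 and 7.65 FPKM in GTWT, 11.8, 11.2, 11.03 and 13.6 in GTD272 and 14.3, 17.2, 16.5 and 14.3 in GT. Every GTWT library lay below every GT library, and GTD272 libraries lay between GT and most of GTWT. It differed by -0.82 in GTWT against GT on the log2(FPKM + 1) scale (SE 0.14, limma adjusted p = 0.0017), a ratio of mean FPKM of 0.547. The call held when each library was left out in turn and after each other scaling, and the authors' deposited table gives a q-value of 0.000573.

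Eif5a, the widely expressed paralog of Eif5a2, was at 219, 225, 222 and 196 FPKM in GTWT, 235, 228, 235 and 219 in GTD272 and 209, 205, 198 and 225 in GT. Its groups overlapped, with a log2 difference of 0.04 in GTWT against GT (95% interval -0.07 to 0.15). The ratio of Eif5a to Eif5a2 was 26.4 ± 6.65 in GTWT, 19.4 ± 2.27 in GTD272 and 13.6 ± 1.94 in GT (SD, n = 4 each). The annotated 3′ UTR is 4391 bases long in Eif5a2 and 633 in Eif5a.

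**Figure D2:**
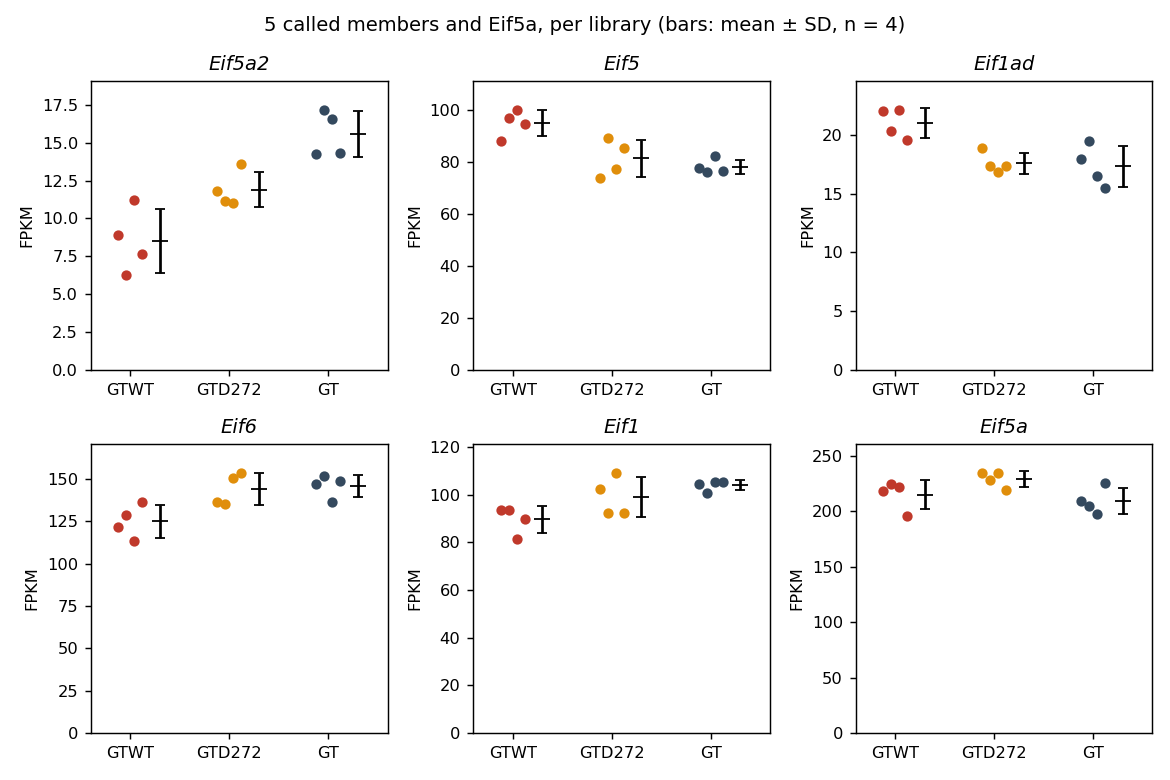
FPKM (linear axis from 0) of the 5 genes called in GTWT against GT and of Eif5a in each library, with the mean and SD of 4 libraries beside the points. Eif5a2 lies lowest in GTWT and highest in GT, and Eif5 and Eif1ad lie above GT in all 4 GTWT libraries.

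Eif5, which makes eIF2 hydrolyse GTP at the start codon, was at 88.0, 96.9, 99.9 and 94.6 FPKM in GTWT, 73.8, 89.1, 77.3 and 85.1 in GTD272 and 77.7, 76.2, 82.0 and 76.2 in GT. All GTWT libraries were above all GT libraries, and GTD272 overlapped both. It rose by 0.28 in GTWT against GT (SE 0.06, limma adjusted p = 0.00992), also without any 1 library. The table gives the Eif5 locus to Snora28 as well, a small nucleolar RNA listed at 0 in 9 libraries and between 55907 and 68180 FPKM in GTWT replicate 3 and GT replicates 2 and 4. For Eif5, GTWT replicate 3 was the highest of its group and these GT libraries were the lowest of theirs, and the part of Snora28 in the difference was not tested.

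Eif1ad, a gene related to eIF1A, was at 21.99, 20.3, 22.1 and 19.5 FPKM in GTWT, 18.9, 17.4, 16.8 and 17.3 in GTD272 and 17.9, 19.4, 16.5 and 15.5 in GT. GTWT lay above both other groups in every library. The difference was 0.27 in GTWT against GT (SE 0.08, limma adjusted p = 0.0392), and the call was lost without GTWT replicate 1, 2 or 3 or GT replicate 1, 3 or 4 (0.0615 to 0.106). Eif1ad shares its locus with Banf1, which was at 125 ± 10.9 FPKM in GTWT and 120 ± 3.41 in GT (SD, n = 4 each) and was not called.

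Eif6 was at 121, 129, 113 and 137 FPKM in GTWT, 137, 135, 151 and 154 in GTD272 and 147, 152, 137 and 149 in GT. The highest GTWT library and the lowest GT library were nearly level, and the groups did not overlap. It fell by 0.22 in GTWT against GT (SE 0.06, limma adjusted p = 0.0283). The call was lost without GTWT replicate 1 or 3 or GT replicate 1, 2 or 4 (0.0643 to 0.0768), after quantile normalization (0.101) and after cyclic loess normalization (0.0863).

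Eif1 was at 93.8, 93.6, 81.4 and 90.0 FPKM in GTWT, 102, 92.5, 109 and 92.3 in GTD272 and 105, 101, 106 and 105 in GT. Each GTWT library lay below each GT library. It fell by 0.21 in GTWT against GT (SE 0.06, limma adjusted p = 0.0332), and the call was lost without GTWT replicate 3 or 4 or any 1 GT library (0.0511 to 0.0809), after quantile (0.134) or cyclic loess normalization (0.0864). Its paralog Eif1b was at 267 to 315 FPKM in GTWT, 275 to 342 in GTD272 and 263 to 281 in GT. The ratio of Eif1b to Eif1 was 3.28 ± 0.436 in GTWT, 3.17 ± 0.553 in GTD272 and 2.64 ± 0.106 in GT (SD, n = 4 each).

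Beyond the called genes, Eif4h, Eif4a1 and Eif2ak3 were close to the threshold in GTWT against GT. Eif4h was at 306, 310, 301 and 309 FPKM in GTWT and 334, 341, 351 and 358 in GT, which did not overlap, with a log2 difference of -0.17 (limma adjusted p = 0.0649); without GTD272 replicate 1 or 4 it was called (0.0414 and 0.0417). Eif4a1 was at 80.7, 88.4, 104 and 88.6 FPKM in GTWT and 106, 107, 99.2 and 110 in GT, with a difference of -0.22 (0.0504), and was called without GTWT replicate 3 (0.00854) or GTD272 replicate 4 (0.0439). Eif2ak3 was at 12.4, 10.6, 15.4 and 12.98 FPKM in GTWT and 18.6, 14.004, 15.01 and 18.1 in GT, with a difference of -0.33 (0.0673), and was called without GTWT replicate 3 (0.0263) or GT replicate 2 (0.0471). The authors' deposited table calls Eif2ak3 lower (q = 0.00462), besides Eif5 (0.00146) and Eif5a2, so 3 of 49 genes are called there (6.12%) against 18.6% of all genes.

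The groups GTWT and GT did not overlap for 9 of the 49 genes, or 18.4%, against 21.9% of all genes tested. Besides the 5 called genes and Eif4h, these were Eif2b4 and Eif2d with higher and Eif2s2 with lower values in GTWT. The 95% interval of the log2 difference lay within 0.5 of 0 for 35 genes (71.4%, against 55.3% of all genes) and within 0.25 for 15 (30.6%, against 12.8%). For Eif4b it ran from -0.06 to 0.13 and for Eif4e3 from -0.12 to 0.05. It was wide for genes at low levels, as in Eif3i, where it ran from -1.08 to 0.13.

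By role, limma's calls in GTWT against GT (10.2% of the 49 genes, against 16.6% of all genes) fell on 2 groups. No concentration by role is concluded from groups this small, and the calls of Eif1, Eif1ad and Eif6 were lost without single libraries. Of the 6 genes listed under scanning and start codon selection Eif5 and Eif1ad rose, Eif1 fell and Eif1ax, Eif1b and Eif5b were not called. Eif1ad was listed there as a gene related to eIF1A, and a part of its protein in scanning is not shown here. Of the eIF5A and eIF6 group Eif5a2 and Eif6 fell and Eif5a was not called. None of the 5 tested eIF2 genes, the 5 eIF2B genes, the 3 tested kinase genes, the 14 eIF3 genes, the 7 eIF4F genes, the 5 genes of the 4E family and its binding proteins or Eif4a3 of the exon junction complex was called by limma, with median log2 differences by group between -0.07 and 0.14. Of these, Eif2b4, Eif2ak3, Eif4a1 and Eif4h had an unadjusted p under 0.05, and the authors' deposited table calls the kinase gene Eif2ak3 lower. Among the eIF3 genes, the separate values of Eif3j1 and Eif3j2 are uncertain. Their sum, described below, was higher in GTWT (limma adjusted p = 0.0215). Of the 49 genes, 9 had an unadjusted p under 0.05 (18.4%, against 30.9% of all genes).

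**Figure D3:**
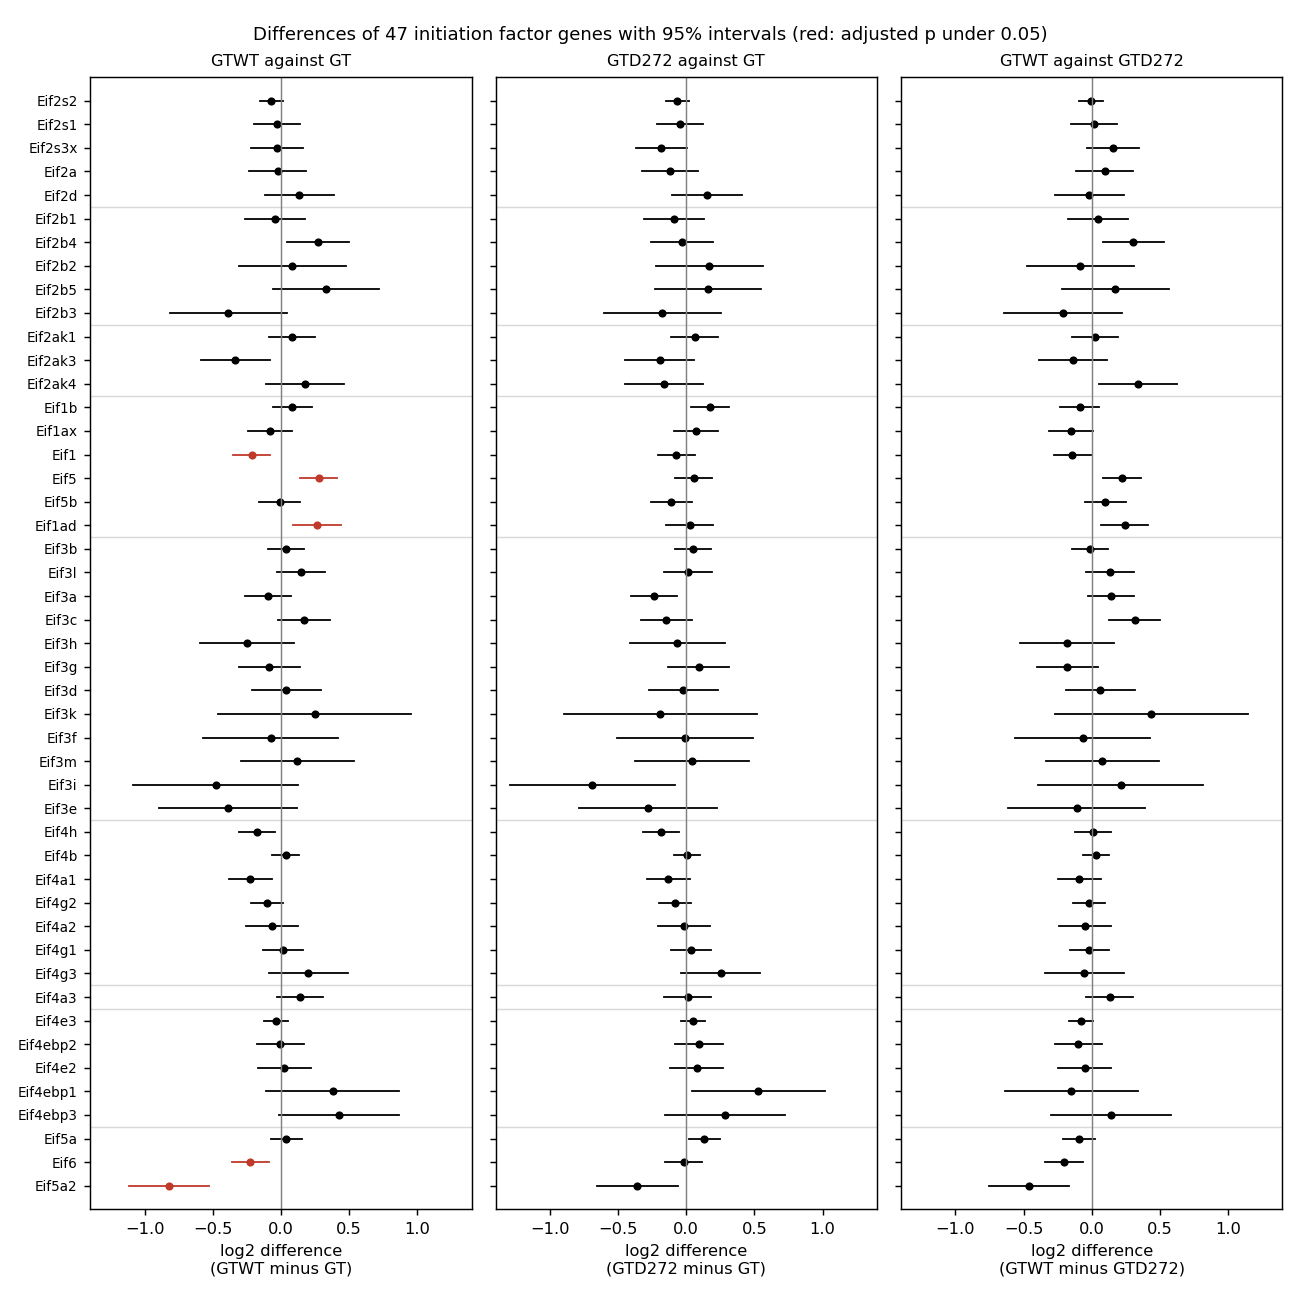
Log2 differences with 95% intervals from limma for 47 genes in GTWT against GT, GTD272 against GT and GTWT against GTD272, in the order of roles of the plot of levels; red marks an adjusted p under 0.05. Eif5a2, Eif6, Eif1, Eif5 and Eif1ad are red in the first panel, and no gene is red in the other panels.

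The second comparison, of GTD272 with GT, asks the same of mRNA for the mutated protein. Limma called 0 of 49 genes, against 2.95% of all genes, while 7 of the 49 had an unadjusted p under 0.05 (14.3%, against 19.01% of all genes). The authors' deposited table calls 1 gene, Eif5a2, lower (q = 0.00223), or 2.04% of the 49 against 6.31% of all genes. For Eif5a2, whose library values are given above, GTD272 and GT did not overlap, at 11.9 ± 1.16 and 15.6 ± 1.504 FPKM (SD, n = 4 each). The log2 difference was -0.36 (95% interval -0.66 to -0.06, limma adjusted p = 0.172).

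Groups also did not overlap for Eif2s3x, Eif3a and Eif4g2, all lower in GTD272, so that this held for 4 of 49 genes (8.16%) against 12.96% of all genes. Eif3a, the largest eIF3 subunit, was at 21.1, 18.8, 21.96 and 19.3 FPKM in GTD272 and 25.2, 23.3, 24.7 and 23.1 in GT, a log2 difference of -0.24 (limma adjusted p = 0.121). Eif4h was at 337, 280, 329 and 275 FPKM in GTD272, where 1 library exceeded the lowest GT library, with a difference of -0.19 (0.117). Eif4ebp1, a 4E-binding protein gene, was at 17.1, 10.7, 13.5 and 8.9997 FPKM in GTD272 and 7.60, 10.7, 4.96 and 10.7 in GT, a difference of 0.53 with an interval from 0.04 to 1.02 (0.222). Eif3i, a small propeller subunit of eIF3, was at 4.84, 3.02, 2.76 and 4.31 FPKM in GTD272 and 3.52, 5.85, 8.44 and 9.84 in GT, a difference of -0.69 (0.198) with groups that overlap. Eif1b, Eif5a, Eif5a2, Eif4h, Eif3a, Eif4ebp1 and Eif3i were the 7 genes with an unadjusted p under 0.05, with Eif1b, Eif5a and Eif4ebp1 higher and the others lower in GTD272. The median difference of the 49 genes was -0.02, against -0.01 for all genes, and the interval lay within 0.5 of 0 for 36 of them (73.5%, against 63.8% of all genes).

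The third comparison, of GTWT with GTD272, sets the 2 injected groups side by side, which were both cultured but differed in Marf1 level as well as in the protein. Limma called 0 of 49 genes against 2.46% of all genes, with 8 at an unadjusted p under 0.05 (16.3%, against 18.4% of all genes). Eif5a2 differed by -0.46 (SE 0.14, adjusted p = 0.0946), with GTWT replicate 3 at 11.2 FPKM reaching into the GTD272 range, and without this library it was called (0.0249). Eif5 differed by 0.22 (SE 0.06, adjusted p = 0.0834) and was called after quantile normalization (0.0486), and Eif6 differed by -0.20 (SE 0.06, adjusted p = 0.105). The authors' deposited table calls Eif5a2 lower in GTWT (q = 0.00189) and Eif3c higher (0.0482), which is 2 of 49 (4.08%) against 5.22% of all genes.

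Eif3c, a core eIF3 subunit that binds eIF1 and eIF5, was at 20.5, 20.7, 18.4 and 20.1 FPKM in GTWT, 17.8, 14.3, 17.5 and 14.1 in GTD272 and 17.04, 17.4, 18.8 and 17.1 in GT. GTWT lay above GTD272 in every library, and the GT values were between the means of the injected groups. The log2 difference of GTWT against GTD272 was 0.32 (95% interval 0.13 to 0.50, limma adjusted p = 0.0741). The other genes whose GTWT and GTD272 libraries did not overlap were Eif1ad and Eif2ak4, higher in GTWT, and Eif4e3, lower, so 4 of 49 in all (8.16%, against 10.2% of all genes). Eif2b4, an eIF2B subunit gene, was at 15.8, 15.3, 16.6 and 20.9 FPKM in GTWT, 13.2, 12.4, 13.3 and 15.5 in GTD272 and 14.5, 12.4, 14.9 and 13.8 in GT. Its GTWT libraries lay above all GT libraries and above 3 of the 4 GTD272 libraries, with differences of 0.27 against GT (adjusted p = 0.0941) and 0.31 against GTD272 (adjusted p = 0.141). The interval lay within 0.5 of 0 for 34 genes (69.4%, against 63.2% of all genes).

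Eif3j1 and Eif3j2 both encode the loosely bound eIF3j subunit, and their separate values in the table are uncertain. Their coding sequences of 786 and 792 bases have 0 mismatches and 6 unpaired bases, with an identical run of 784 bases, so reads from the coding part match both. The deposited table lists both in 1 locus on chromosome 2 with Spg11, while GENCODE vM21 and RefSeq place Eif3j1 there and Eif3j2 on chromosome 18, where it has 1 exon against 8 in Eif3j1.

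Eif3j1 took 1.41%, 0.304%, 98.3% and 0.625% of the summed FPKM of the pair in GTWT, 2.76%, 0.639%, 98.9% and 0.749% in GTD272 and 0.783%, 0.789%, 49.9% and 0.379% in GT. Replicate 3 of each group thus stood apart in the same direction. The sum was 58.3, 67.3, 65.5 and 58.3 FPKM in GTWT, 55.5, 57.2, 51.5 and 48.8 in GTD272 and 46.7, 46.6, 59.3 and 39.8 in GT. Replicate 3 lay within the range of the other libraries in GTWT and in GTD272 and above the others in GT, where it reached the GTWT range.

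As separate genes, neither was called in any comparison. Summed as 1 gene, an alternative chosen after seeing the data, eIF3j RNA averaged 62.4 ± 4.72 FPKM in GTWT, 53.2 ± 3.83 in GTD272 and 48.1 ± 8.17 in GT (SD, n = 4 each). The sum was 0.38 higher in GTWT than in GT on the log2 scale (SE 0.10, limma adjusted p = 0.0215), with overlap between the groups. FPKM is divided by transcript length, and the annotated transcripts are 5413 bases for Eif3j1 and 2379 for Eif3j2, so the sum still depends on how shared reads were assigned. The sum differed by 0.16 in GTD272 against GT (adjusted p = 0.443) and by 0.22 in GTWT against GTD272 (adjusted p = 0.259).

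**Figure D4:**
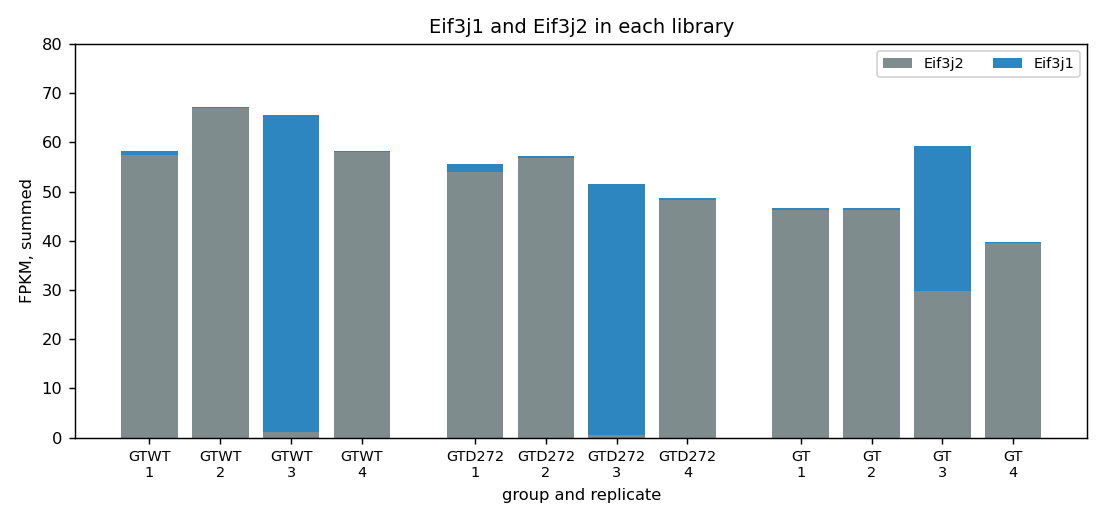
FPKM of Eif3j1 and Eif3j2 stacked for each library (linear axis from 0), grouped as GTWT, GTD272 and GT. Eif3j1 makes up most of the bar in replicate 3 of GTWT and GTD272, 49.9% in replicate 3 of GT and under 3% in the other 9 libraries, while the summed height stays between 39.8 and 67.3 FPKM.

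Around the initiation factors, 30 of 31 listed regulators of initiation were tested. In GTWT against GT limma called 7 of 30, against 16.6% of all genes: 2 rose, 5 fell and 23 were not called. The authors' deposited table calls 9 of 30 there, against 18.6% of all genes. In GTD272 against GT limma called 1 of 30 (lower), against 2.95% of all genes, and the authors' table calls 3, against 6.31%. In GTWT against GTD272 limma called 0 of 30, against 2.46% of all genes, with 7 at an unadjusted p under 0.05 (18.4% of all genes), and the authors' table calls 2, against 5.22%. Ppp1r15a, which targets a phosphatase to eIF2α, fell to 22.5 ± 0.284 FPKM in GTWT, against 34.7 ± 4.13 in GT, with 29.3 ± 3.47 in GTD272. Larp1, which binds mRNAs of the translation machinery, fell to 17.3 ± 2.39 in GTWT, against 24.3 ± 0.809 in GT, with 21.6 ± 1.87 in GTD272 (SD, n = 4 each). The log2 differences of GTWT against GT were -0.60 and -0.48.

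Pabpc1l, the embryonic poly(A)-binding protein of oocytes, rose to 87.8 ± 6.68 FPKM in GTWT, against 68.2 ± 2.30 in GT. In GTD272 Pabpc1l was at 79.8 ± 2.83, with every library above every GT library (limma adjusted p = 0.0527). The authors' deposited table calls it higher in GTD272 than in GT (q = 0.0472). Paip1, named after its values were seen, encodes a partner of poly(A)-binding protein. It fell to 32.4 ± 2.27 FPKM in GTWT, against 38.5 ± 1.55 in GT. In GTD272 Paip1 was at 33.5 ± 2.29, with every library below every GT library, and was not called (limma adjusted p = 0.138). Pabpc1 and Pabpc4, which encode other poly(A)-binding proteins and were also named after their values were seen, were not called by limma, and the authors' deposited table calls Pabpc1 lower in GTWT. Paip2 and Paip2b both encode inhibitors of poly(A)-binding protein. Paip2 fell to 286 ± 17.8 FPKM in GTWT and 308 ± 18.96 in GTD272, against 365 ± 11.6 in GT. By contrast, Paip2b rose to 285 ± 13.6 FPKM in GTWT, against 234 ± 9.29 in GT (SD, n = 4 each). In GTD272 Paip2b was at 262 ± 13.01 and was not called against GT (limma adjusted p = 0.0883). Of 12 listed elongation and termination genes, limma called 1, Eef1a1, which brings aminoacyl-tRNA to the ribosome, in each comparison with GT, against 16.6% and 2.95% of all genes. It fell in GTWT and in GTD272 against GT, at 651 ± 12.5 and 619 ± 57.7 against 752 ± 33.6 FPKM, and GT was shared by both comparisons. The authors' deposited table also calls Eef1a1 lower in GTD272 but not in GTWT, and calls Eef2, a translocation factor named after its values were seen, higher in both. Limma did not call Eef2, which averaged 59.7 ± 4.09 FPKM in GTWT and 60.4 ± 4.59 in GTD272, against 51.2 ± 3.84 in GT (SD, n = 4 each). In GTWT against GTD272 limma called 0 of these 12, against 2.46% of all genes. An unadjusted p under 0.05 was reached by 2 of them (18.4% of all genes), and the authors' table calls 0, against 5.22%.

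The 3′ ends of the transcripts were searched for the cytoplasmic polyadenylation motifs TTTTAT and TTTTAAT, on the transcribed strand in the last 100 annotated bases. Of the 42 tested initiation factor genes with a 3′ UTR of at least that length, 5 held one (11.9%), against 19.9% of 10035 tested genes. Eif1ax, Eif2d, Eif3j2, Eif4e2 and Eif4e3 were those with a motif, and the windows of Eif5a2, Eif5, Eif1ad, Eif6 and Eif1 held none. A match describes these letters only.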

How the data were processed

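RNA was sequenced from 12 samples in 3 groups of 4, taken from the sample titles. Per the labels' design text and the submitters' processing notes, the authors trimmed reads, aligned them to mm10 with TopHat2 2.0.13 and computed FPKM with Cufflinks 2.2.1. Cuffdiff gave the deposited p-values and q-values, per the labels, which stand beside the authors' log2 ratios, whose order of groups is the second over the first and was turned round here. The annotation and strand setting are not given in the sources used here. Header names stood 1 column left of the values and were realigned. The deposited files hold no read counts, so depth is known only as a ratio between libraries: of 35446 pairs of values under 0.3 FPKM, 91.5% had a ratio within 0.02 (log2) of one between whole numbers of at most 5.

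Genes with FPKM of at least 1 in at least 4 libraries (11687) were tested with limma 3.58.1 in R 4.3.3 on log2(FPKM + 1) with a mean-variance trend, all libraries in 1 model, and Benjamini-Hochberg adjustment over all genes tested. Differences are on that scale, which understates those of low genes. Counts of calls use an adjusted p under 0.05. The fit was also run on simulated data with independent values. That run cannot check reads shared between genes or a shared batch, and no result here rests on it. Alternatives were a pseudocount of 0.1, no filter, quantile, median-ratio and cyclic loess scaling, only the 2 groups compared, a replicate block, leaving out each library, and the authors' q-values.

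The members and gene lists were chosen with earlier results of these data known. Named genes are those called in any comparison, the 2 with the highest mean in each role, those not tested and the 6 partner genes with the largest called differences. Other members were named after their values were seen. Of the 51 genes, 12 share their listed locus with another gene. Identities of sequences were computed with Biopython 1.88 on GENCODE vM21 transcripts, the coding part taken from its annotation.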

Additional observations from a re-analysis of the deposited data

Results flagged for a closer look

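Among 147 groups of 4 libraries, 10 values lay far from the other 3 of their group by Dixon's criterion, which chance alone meets in about 1 of 20 groups. Of these, 5 belonged to the Eif3j pair in replicate 3. Eif3j1 was at 64.4 FPKM in GTWT replicate 3, where the other GTWT libraries were at 0.204 to 0.821, at 50.9 in GTD272 replicate 3 (others 0.365 to 1.53) and at 29.6 in GT replicate 3 (others 0.151 to 0.368). Eif3j2 was at 1.10 FPKM in GTWT replicate 3 (others 57.5 to 67.1) and at 0.572 in GTD272 replicate 3 (others 48.4 to 56.8).

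Eif2ak1 was at 57.7 FPKM in GTWT replicate 1, and the other GTWT libraries were at 47.2 to 47.3. Eif4a3 was at 34.7 in GTWT replicate 4 (others 30.3 to 30.8). Eif2s1 was at 21.3 in GTD272 replicate 4 (others 23.5 to 23.9). Eif1 was at 101 in GT replicate 2 (others 105 to 106) and Eif4a2 at 54.1 in GT replicate 1 (others 47.3 to 48.3).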

How the results depend on the processing

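The calls of Eif5a2 and Eif5 in GTWT against GT were kept under every alternative run. In that comparison 2 genes rose, or 1 with only the 2 groups compared, where the Eif1ad call was lost (adjusted p = 0.0653), 1 by the authors' q-values and 1 to 2 without a library. The genes that fell numbered 3, or 1 after quantile normalization, 1 after cyclic loess normalization and 1 to 5 without a library. In GTD272 against GT the authors' table calls 1 gene lower, where limma called 0. In GTWT against GTD272, 1 rose after quantile normalization and 1 by the authors' q-values, 1 fell by the authors' q-values, and 0 to 1 fell without a library. Eif4h was called in GTWT against GT with only the 2 groups compared (0.0106). Summing Eif3j1 and Eif3j2 turned the difference of -0.62 for Eif3j2 in GTWT against GT to 0.38. The cause of these changes was not tested. Over all genes tested, deviations of same-numbered libraries correlated at -0.222 to 0.211. Most of these pairs were negative rather than above 0.1, so numbers were not taken as pairs. The Eif3j pair nevertheless stood apart in replicate 3 of each group. With a replicate block, Eif1 was not called (adjusted p = 0.0601), and the other counts of calls were 2 rises and 2 falls in GTWT against GT and 0 in the other comparisons. Over 31 named genes, 3 comparisons and all alternatives but the authors' q-values, 1739 of 1773 values kept their side of the threshold. Most of these belong to results that the main fit did not call, so the total says little about the called genes. The 23 values that lost a call were all of Eif1, Eif1ad and Eif6. Apart from Eif3j1 and Eif3j2, genes under 10 FPKM varied more between libraries than those at 50 FPKM or more (median coefficients of variation of 25.4% and 5.63%), which limits what could be detected for them.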
